A study of Mus musculus with 3 samples.

Results

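A rule over 7 genes picked out 546 of the 38192 nuclei with at least 500 detected genes in embryonic mouse hearts. The nuclei were selected on their UMI counts: a nucleus was taken when it held at least 1 UMI (unique molecular identifier, a tag that marks 1 captured RNA molecule) of at least 2 of Col1a1, Lrp2, Podxl, Epcam, Grhl2, Wnt6 and Cldn6. It also had to hold 0 UMIs of the epicardial genes Tbx18 and Tcf21 and UMIs of fewer than 4 of 11 endothelial genes. Because these counts chose the nuclei, the levels of the 7 genes and of the 11 endothelial genes are given as a description, with no call between libraries. The rule was meant for mesenchymal and epithelial nuclei that are neither heart muscle, epicardium nor endothelium. Clustering showed that 98 of the 546 nuclei were mesenchyme-like and 103 were epithelium-like. The other 345 lay in clusters with at least 50% of the heart muscle marker level of the nuclei outside the rule.

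The nuclei came from whole hearts dissected at embryonic day 9.5 and compared 3 genotypes of Ncx1, the older name of Slc8a1, whose product exchanges sodium for calcium across the membrane of heart muscle cells. The Ncx1-/- library was made from homozygous mutants, the Ncx1+/- library from heterozygotes and the Ncx1+/+ library from wild-type embryos. Each library held nuclei of 5 hearts that were pooled before capture, and which nucleus came from which heart is not given in the labels. With 1 library for each genotype no test between genotypes was possible and no difference has a replicate check. Intervals are therefore 95% exact intervals for counting error only, and a pool effect and a genotype effect cannot be told apart.

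At this stage the heart tube is joined to the body wall at its inflow and outflow ends and is surrounded by the pericardial cavity, whose lining is a mesothelium. Surface ectoderm covers the body wall and expresses keratins, claudins, Epcam and grainyhead-like transcription factors, which keep epithelial cells joined. Loose mesenchyme beneath such epithelia makes collagen I and other matrix and receives Wnt and BMP signals. Lrp2 (megalin) is an endocytic receptor on the apical side of several embryonic epithelia, Podxl (podocalyxin) is an anti-adhesive surface sialomucin, and Wnt6 is a Wnt ligand known from surface ectoderm.

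The rule selected 243 of 12325 nuclei in Ncx1-/- (1.97%, exact binomial interval 1.73 to 2.23), 127 of 12305 in Ncx1+/- (1.03%, 0.861 to 1.23) and 176 of 13562 in Ncx1+/+ (1.30%, 1.11 to 1.503). The libraries had a median of 3697, 3503 and 3908 UMIs per nucleus in the same order. Ncx1-/- shared 47 cell barcodes with Ncx1+/- and 57 with Ncx1+/+, and Ncx1+/- shared 40 with Ncx1+/+. These included barcodes of 2, 2 and 0 nuclei of the rule. Slc8a1 stood at 1035 CPM (counts scaled to 1000000 UMIs of a set) in Ncx1-/-, 6517 CPM in Ncx1+/- and 11801 CPM in Ncx1+/+ over the nuclei outside the rule, in the order of the labelled genotypes.

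Of the 427 nuclei with UMIs of exactly 2 rule genes, 25.5% fell into 1 cluster of a clustering of all 38192 nuclei. That cluster held 404 nuclei in all, 220 of them of the rule. Just outside the rule, 8584 nuclei had UMIs of 1 rule gene and 1.01% of them fell into that cluster. With 3 rule genes it was 91.4% of 81 nuclei. At the endothelial limit, 17 nuclei of the rule had UMIs of 3 endothelial genes, and 5 nuclei with UMIs of 4 were left out.

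The label held for fewer nuclei than it missed. Podxl was found in 10889 nuclei of the series (28.5%), Lrp2 in 899 (2.35%) and Col1a1 in 399 (1.04%). Wnt6 was found in 156 nuclei, Grhl2 in 130, Epcam in 114 and Cldn6 in 13. The pair of Lrp2 and Podxl alone brought in 181 of the 345 cardiomyocyte-type nuclei, and the pair of Col1a1 and Podxl a further 87. In these nuclei the summed level of 15 cardiomyocyte markers was 116% of that in nuclei outside the rule, against 37.2% in cluster 0, 28.7% in cluster 2 and 43.2% in cluster 7. Cluster 6 held 30 of the cardiomyocyte-type nuclei and combined 88.8% of the cardiomyocyte level with 3 of 23 mesenchyme and 4 of 13 mesothelium markers that the rule did not use at least 3-fold above the outside level, against 1.78% of all measured genes. Its median UMI count of 7120 was higher than the 3457 of cluster 0 and the 3844 of cluster 2, and its mean doublet score was 0.281 against 0.107 and 0.0689.

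**Figure D1:**
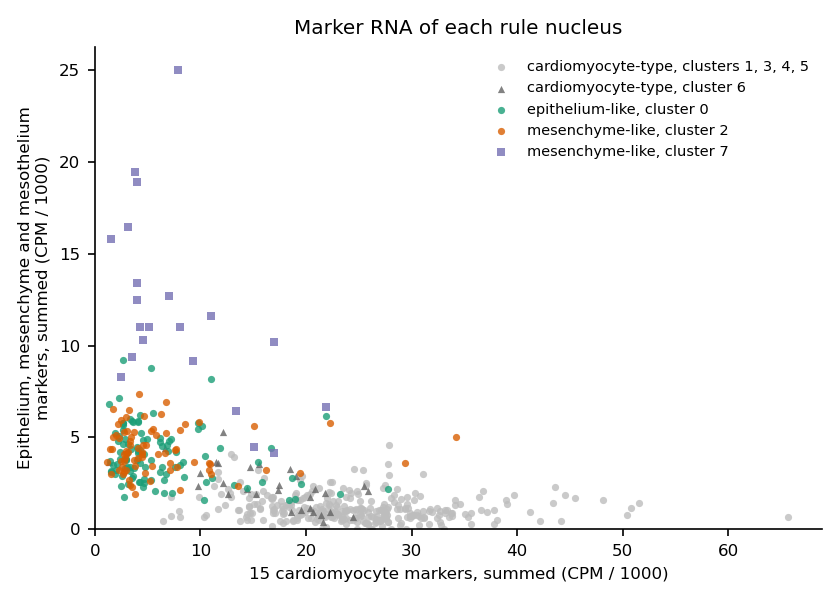
Each point is 1 of the 546 nuclei of the rule. The x axis gives the summed level of 15 cardiomyocyte markers and the y axis the summed level of epithelium, mesenchyme and mesothelium markers without the 7 rule genes, both in CPM / 1000, and colours give the clusters. Cardiomyocyte-type nuclei lie to the right with a median of 23385 CPM of cardiomyocyte markers, against 4396 CPM in epithelium-like and 4503 CPM in mesenchyme-like nuclei, and cluster 7 reaches the highest marker levels.

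Mesenchyme-like and epithelium-like nuclei made up a larger share of the Ncx1-/- library than of the other libraries, beyond counting error. Mesenchyme-like nuclei numbered 61 in Ncx1-/-, 15 in Ncx1+/- and 22 in Ncx1+/+, which was 0.495% (0.379 to 0.635), 0.122% (0.0682 to 0.201) and 0.162% (0.102 to 0.245) of the library. The Ncx1-/- share was 3.05 times that of Ncx1+/+ (1.85 to 5.22). It was 2.95 times (1.71 to 5.30) for cluster 2 and 3.67 times (0.944 to 20.7) for cluster 7, the clusters that make up the class. Epithelium-like nuclei numbered 67 in Ncx1-/-, 7 in Ncx1+/- and 29 in Ncx1+/+, or 0.544% (0.422 to 0.690), 0.0569% (0.0229 to 0.117) and 0.214% (0.143 to 0.307).

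The Ncx1-/- share of epithelium-like nuclei was 2.54 times that of Ncx1+/+ (1.62 to 4.08), and the Ncx1+/- share was 0.266 times that of Ncx1+/+ (0.0984 to 0.621). The heterozygous library thus lay below wild type, not between wild type and mutant. The order of the libraries was the same in the epicardial cluster of the whole series, described below. That cluster held 295 of 12325 Ncx1-/- nuclei, 46 of 12305 Ncx1+/- nuclei and 222 of 13562 Ncx1+/+ nuclei. Cardiomyocyte-type nuclei of the rule stood at 0.933% in Ncx1-/-, 0.853% in Ncx1+/- and 0.922% in Ncx1+/+, with a ratio of Ncx1-/- to Ncx1+/+ of 1.01 (0.779 to 1.31). Their clusters were unlike each other. The ratio was 2.45 (1.24 to 5.14) in cluster 5 and 0.261 (0.111 to 0.548) in cluster 3. In clusters 1, 4 and 6 it was 1.61 (0.973 to 2.71), 0.680 (0.375 to 1.21) and 1.38 (0.601 to 3.22). The ratios of the mesenchyme-like and epithelium-like shares kept their size when genes that differed between Ncx1-/- and Ncx1+/+ were left out of the clustering. The log2 ratios were then 1.75 for mesenchyme-like and 1.40 for epithelium-like nuclei. How much tissue next to the heart was kept at dissection is not given in the labels. Its part in these shares was not tested, and it cannot be told apart from a difference between genotypes.

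**Figure D2:**
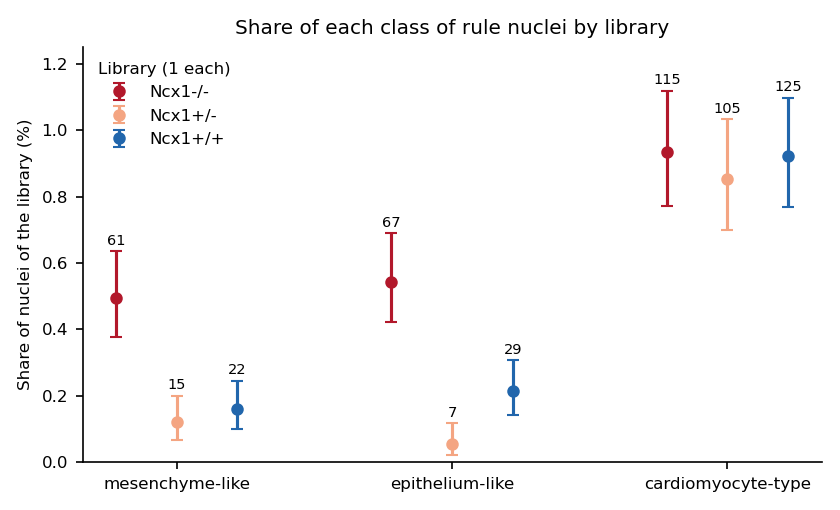
The y axis gives the share of all nuclei of a library, in percent, that belong to each class on the x axis. Points are single libraries in the order Ncx1-/-, Ncx1+/- and Ncx1+/+, bars are exact 95% binomial intervals for counting error, and the number of nuclei stands above each bar. The interval of Ncx1-/- lies above both other libraries for mesenchyme-like and epithelium-like nuclei and overlaps them for cardiomyocyte-type nuclei.

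The 103 epithelium-like nuclei, cluster 0, carried genes of epithelia, and part of the surface ectoderm and mesothelium lists. Of 23 epithelium markers that the rule did not use, 14 were at least 3-fold above the nuclei outside the rule, against 7.85% of 9309 measured genes. Clusters were formed on these same counts, so this is a description. The rule gene Grhl2 (ENSMUSG00000022286, chr15:37233036-37363569, plus strand, mm10), a grainyhead-like transcription factor, stood at 222 CPM in Ncx1-/-, 201 CPM in Ncx1+/- and 208 CPM in Ncx1+/+ on 61, 4 and 23 counts. Outside the rule the level was 0.378 CPM. Epcam (ENSMUSG00000045394, chr17:87635979-87651129, plus strand), an epithelial adhesion molecule, stood at 170 CPM against 0.340 CPM, and Wnt6 at 183 CPM against 0.315 CPM. The tight-junction gene Cldn6 had only 8 counts, or 19.7 CPM against 0.0189 CPM. Further epithelial genes were not part of the rule. Cdh1, which encodes E-cadherin, stood at 78.9 CPM against 0.189 CPM. The splicing regulator Esrp1 stood at 185 CPM against 0.353 CPM, and the keratins Krt8 and Krt18 stood at 173 and 340 CPM against 8.16 and 20.4 CPM.

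The promoters of Epcam, Krt8 and Krt18 are shown because these genes were at least 3-fold higher in cluster 0, Krt8 and Krt18 also in clusters 2 and 7, and each promoter holds the E-box CACCTG, a sequence known from the Cdh1 promoter as a site of the repressors Snai1 and Zeb1. Each window runs from 250 bases before to 50 bases after the RefSeq start in build GRCm38.p6, 5′ to 3′ on the strand of the gene, with the E-box on either strand in capitals. The promoter of Upk3b, a mesothelial gene at least 3-fold higher in clusters 0 and 2, is shown as one that holds none.
Epcam, chr17:87635729-87636028, plus strand: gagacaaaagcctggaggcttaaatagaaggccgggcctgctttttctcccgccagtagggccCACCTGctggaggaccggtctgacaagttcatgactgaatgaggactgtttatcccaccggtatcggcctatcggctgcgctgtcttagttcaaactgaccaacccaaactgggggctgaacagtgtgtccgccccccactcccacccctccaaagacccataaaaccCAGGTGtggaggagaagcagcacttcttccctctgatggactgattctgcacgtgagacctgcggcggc
Krt8, chr15:102004293-102004592, minus strand: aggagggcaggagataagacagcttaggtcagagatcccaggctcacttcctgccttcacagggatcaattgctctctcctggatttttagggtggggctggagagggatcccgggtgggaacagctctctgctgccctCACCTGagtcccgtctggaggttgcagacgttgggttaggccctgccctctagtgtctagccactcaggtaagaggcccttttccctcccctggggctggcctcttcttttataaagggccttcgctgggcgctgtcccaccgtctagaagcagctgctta
Krt18, chr15:102027966-102028265, plus strand: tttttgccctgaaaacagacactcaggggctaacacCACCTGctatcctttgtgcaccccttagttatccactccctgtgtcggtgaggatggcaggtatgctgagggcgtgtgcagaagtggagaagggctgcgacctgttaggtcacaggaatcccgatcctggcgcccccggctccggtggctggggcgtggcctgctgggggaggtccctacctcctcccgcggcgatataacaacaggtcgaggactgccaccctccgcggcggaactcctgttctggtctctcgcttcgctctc
Upk3b, chr5:136038246-136038545, plus strand: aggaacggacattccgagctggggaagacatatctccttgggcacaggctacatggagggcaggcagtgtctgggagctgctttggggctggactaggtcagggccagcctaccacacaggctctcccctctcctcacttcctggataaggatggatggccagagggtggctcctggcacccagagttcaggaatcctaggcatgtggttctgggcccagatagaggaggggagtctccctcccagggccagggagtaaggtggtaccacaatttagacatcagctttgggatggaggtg
The motif was found on either strand in 13 of the 17 genes of the epithelium list that have a promoter entry, in 0 of 13 genes of the mesenchyme list, in 3 of 13 genes of the mesothelium list (Aldh1a2, Gpm6a and Sema3d) and in 22.6% of 27025 genes. Of the epithelium list genes that were higher in cluster 0, 9 of 12 held the E-box (75%), against 76.5% over the list. The grainyhead motif AACCNGTT, which does not overlap the E-box, was found in 2 of the 17 epithelium list genes, against 2.35% of all genes. The search was made after the gene levels were known, and a match is a description of the letters and not a bound site.

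Cluster 0 held more markers of surface ectoderm than of endoderm among those the rule did not use. Of 14 such surface ectoderm genes 5 were at least 3-fold higher, against 7.85% of all 9309 measured genes. Among them was Tfap2a, a transcription factor of ectoderm and neural crest, at 143 CPM against 0.422 CPM. Msx2, a homeobox gene and BMP target, stood at 131 CPM against 13.8 CPM, and was at least 3-fold higher in clusters 2 and 7 too. The remaining surface ectoderm genes outside the rule did not reach 3-fold with at least 5 counts. They were Trp63, Krt5, Krt14, Krt15, Krt17, Tfap2c, Dlx3, Perp and Foxi2. Of 13 such foregut and pharyngeal endoderm genes 0 were higher, and Foxa2 and Shh had 0 counts. Of 9 neural crest genes 3 were higher, and of 13 amnion and extraembryonic mesoderm genes 3. Of 13 mesothelium genes outside the rule 6 were higher, with Bnc1 at 64.1 CPM against 0.844 CPM and Wt1 at 78.9 CPM against 12.1 CPM. Cluster 0 is named epithelium-like only, and no single tissue is given to it.

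Further leading genes of cluster 0 had other roles. Tac2, which encodes the neurokinin B precursor, stood at 123 CPM against 0.384 CPM outside the rule. The heparan sulfate sulfotransferase gene Ndst3 stood at 316 CPM against 1.75 CPM, and Igfbp2, an IGF-binding protein, at 779 CPM against 16.2 CPM. Egfr, the EGF receptor, stood at 252 CPM against 6.35 CPM. Lrp2 (ENSMUSG00000027070, chr2:69424340-69586065, minus strand) stood at 730 CPM in Ncx1-/-, 151 CPM in Ncx1+/- and 517 CPM in Ncx1+/+, with 3 counts in Ncx1+/-. Over the libraries it stood at 644 CPM against 4.35 CPM outside the rule, and its adaptor Dab2 at 249 CPM against 77.5 CPM. The glucose transporter gene Slc2a3 stood at 2657 CPM in Ncx1-/-, 3314 CPM in Ncx1+/- and 1930 CPM in Ncx1+/+. Summed it reached 2491 CPM, 22.8 times (21.4 to 24.3) its level outside the rule. The rule limited the endothelial genes, so low levels of them follow from it. The VEGF receptor gene Flt1 stood at 518 CPM against 216 CPM outside the rule, Tek at 12.3 CPM against 326 CPM and Kdr at 9.87 CPM against 103 CPM.

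The mesenchyme-like nuclei formed 2 groups, clusters 2 and 7. The summed levels of Col1a1, Lrp2 and Podxl were at least 3-fold higher in both, but these are rule genes that chose the nuclei. Not every nucleus held all 3, and in cluster 2 the most frequent combination was Lrp2 and Podxl alone, in 27 nuclei. Cluster 2 held 77 nuclei, 51 in Ncx1-/-, 7 in Ncx1+/- and 19 in Ncx1+/+. Without the genes of the rule, 8 of 23 mesenchyme and 6 of 13 mesothelium markers were at least 3-fold higher, against 5.83% of 8245 measured genes. Twist1, a mesenchymal transcription factor, stood at 223 CPM against 11.5 CPM outside the rule, and Pdgfra, a PDGF receptor, at 206 CPM against 21.9 CPM. Upk3b (ENSMUSG00000042985, chr5:136038496-136046487, plus strand), a uroplakin of mesothelium, stood at 141 CPM in Ncx1-/-, 136 CPM in Ncx1+/- and 47.7 CPM in Ncx1+/+, against 1.40 CPM outside the rule. Because mesenchyme and mesothelium markers were both raised, cluster 2 is compared by its number as well as within its class.

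Among the most enriched genes of cluster 2 were several of unlike function. Ppp2r2b, a regulatory subunit of protein phosphatase 2A, stood at 1858 CPM against 9.10 CPM. The collagen receptor gene Ddr2 stood at 206 CPM against 1.76 CPM. Bnc2, a zinc-finger gene, stood at 1226 CPM, 81.5 times its level outside the rule. Ccbe1, which acts in VEGF-C processing in lymphatic growth, stood at 1574 CPM in Ncx1-/-, 1225 CPM in Ncx1+/- and 2027 CPM in Ncx1+/+, against 31.9 CPM outside the rule. These genes were present in all 3 libraries of cluster 2. Of the Wnt pathway without Wnt6, 12 of 39 genes were at least 3-fold higher, against 5.83% of 8245 measured genes. The Wnt antagonist Dkk2 stood at 433 CPM against 6.12 CPM, the Wnt receptor partner Lgr5 at 36.1 CPM against 2.13 CPM, and the feedback gene Axin2 at 111 CPM against 10.8 CPM.

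Cluster 7 held 21 nuclei, 10 in Ncx1-/-, 8 in Ncx1+/- and 3 in Ncx1+/+, and was rich in matrix genes. Without Col1a1, 12 of 23 mesenchyme markers and 9 of 29 collagen chains were at least 3-fold higher, against 10.6% of 4451 measured genes. Col1a1 (ENSMUSG00000001506, chr11:94936224-94953042, plus strand), a chain of collagen I, stood at 1419 CPM in Ncx1-/-, 1977 CPM in Ncx1+/- and 2351 CPM in Ncx1+/+ cluster 7 nuclei. In cluster 2 it stood at 177 CPM in Ncx1-/-, 272 CPM in Ncx1+/- and 107 CPM in Ncx1+/+. Col1a1 is a rule gene and the clusters were formed on these same counts, so its levels are a description. Lum (ENSMUSG00000036446, chr10:97565128-97572703, plus strand), which encodes the proteoglycan lumican, stood at 1135 CPM in Ncx1-/-, 675 CPM in Ncx1+/- and 862 CPM in Ncx1+/+ cluster 7 nuclei, and had 3 counts (9.83 CPM) in cluster 2. Further matrix genes of cluster 7 were as unequal. Postn (periostin), a matricellular protein, stood at 1721 CPM against 0 counts in cluster 2. Dcn (decorin) stood at 201 CPM against 13.1 CPM. The reverse held for Twist1, at 22.4 CPM in cluster 7 against 223 CPM in cluster 2, and for Ppp2r2b, at 33.5 CPM against 1858 CPM.

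In cluster 7, 5 of 13 genes of the amnion and extraembryonic mesoderm list were at least 3-fold higher, namely Hand1, Bmp4, Pitx1, Postn and Ahnak. Of 13 genes of the cushion mesenchyme list 7 were, namely Pdgfra, Twist2, Postn, Msx1, Cdh11, Col3a1 and Snai2. The share among all 4451 measured genes was 10.6%. In cluster 2, 8 of the 13 cushion mesenchyme genes were at least 3-fold higher, against 5.83% of 8245 measured genes. No single tissue is given to either cluster. Pitx1, a homeobox gene, stood at 179 CPM against 3.28 CPM in cluster 2. The imprinted growth genes Igf2 and H19 stood at 1207 and 581 CPM, against 357 and 141 CPM in cluster 2. The angiopoietin receptor gene Tek stood at 749 CPM against 65.5 CPM, while Kdr had 3 counts and Flt1 1 count, all 3 being endothelial genes that the rule limited. Of 13 mitochondrial transcripts 10 were at least 3-fold higher than outside the rule, as were 7 of 32 ribosomal protein genes, against the same share of 10.6%. The part of RNA quality in these levels was not tested.

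**Figure D3:**
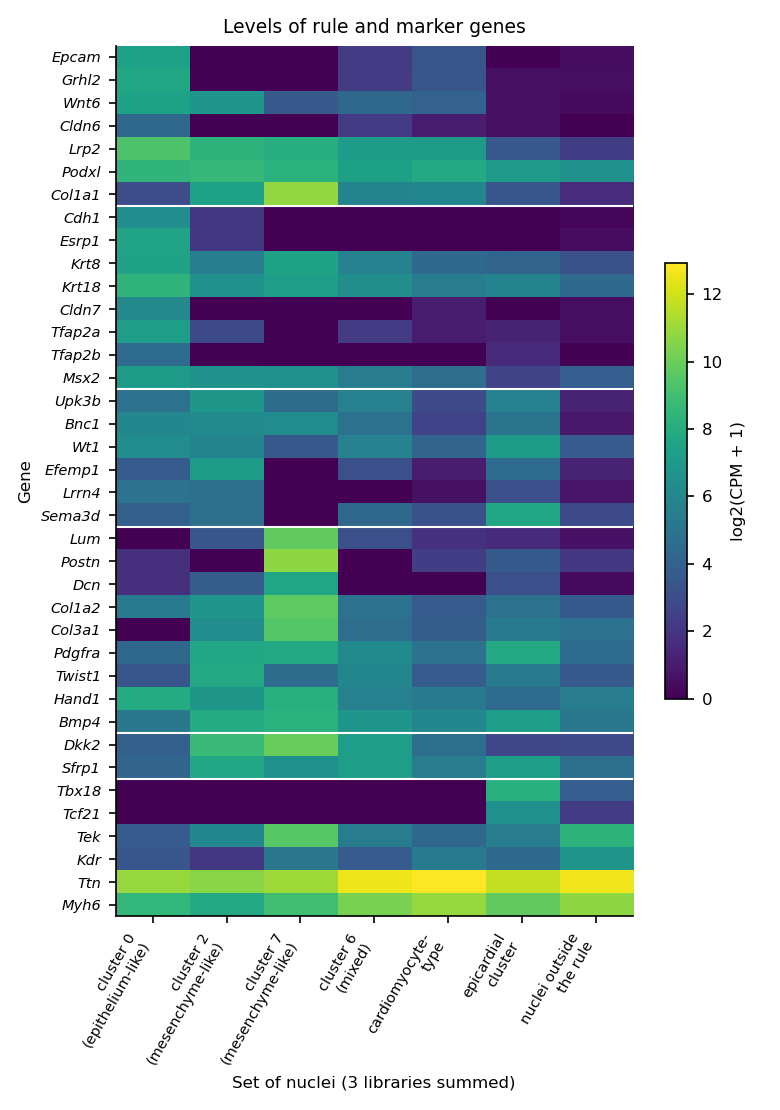
Colour gives log2(CPM + 1) of each gene, rows, in each set of nuclei, columns, with the 3 libraries summed; white lines part the rule genes, epithelium and ectoderm, mesothelium, mesenchyme, Wnt and other cell types from top to bottom. Epcam and Grhl2 are high in cluster 0 and 0 in clusters 2 and 7, Upk3b and Efemp1 peak in cluster 2, and Lum and Postn peak in cluster 7. Tbx18 and Tcf21 are 0 in all sets of the rule by its definition.

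The epicardial cluster of the whole series, 563 nuclei with Tbx18 at 293 CPM, also carries mesothelium markers and is kept out by the rule through Tbx18 and Tcf21. Wt1 stood at 55.7 CPM in cluster 2 and 131 CPM in the epicardial cluster, and Upk3b at 115 and 51.7 CPM. Other genes of cluster 2 were low in the epicardial cluster. Dkk2, which is not a rule gene, stood at 433 CPM in cluster 2 and 5.64 CPM in the epicardial cluster. Lrp2 stood at 321 and 11.3 CPM, and Col1a1 at 167 and 9.88 CPM. Both are rule genes that helped to choose the nuclei of cluster 2, so these 2 differences follow in part from the selection. Sema3d, a semaphorin of the epicardium, had the reverse order, with 26.2 CPM in cluster 2 and 217 CPM in the epicardial cluster. Aldh1a2, which makes retinoic acid, stood at 6.55 CPM (2 counts) in cluster 2 and 28.7 CPM in the epicardial cluster.

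Of the measured genes of glycolysis and glucose uptake, 6 of 12 were higher in Ncx1-/- than in Ncx1+/+ mesenchyme-like nuclei. Genes with at least 50 counts summed over the libraries of a class were measured, and one was called when its CPM differed at least 1.5-fold and the counting interval of the ratio excluded 1. Of 36 genes of the hypoxia and glycolysis list 12 were measured, and 6 of them were higher in Ncx1-/- than in Ncx1+/+ and 0 lower, against 4.76% higher and 7.07% lower among 1952 genes. Hk2 (ENSMUSG00000000628, chr6:82725025-82774454, minus strand), which encodes hexokinase 2, stood at 735 CPM in Ncx1-/-, 325 CPM in Ncx1+/- and 300 CPM in Ncx1+/+, and was the 1 gene of the list that was higher than in both other libraries. Its ratio of Ncx1-/- to Ncx1+/+ was 2.45 (1.64 to 3.77). The other called genes were Slc2a1, Slc2a3, Gapdh, Aldoa and Pkm, with ratios of 1.91, 1.68, 1.67, 1.88 and 1.76. Ribosomal protein genes, an abundant class of transcripts, also differed: 5 of 31 measured were higher and 0 lower than in Ncx1+/+. Their median (log2) was 0.27 against Ncx1+/+ and -0.73 against Ncx1+/-. The 5 measured mitochondrial transcripts, whose level is used as a sign of RNA quality, had a median of -0.31 to Ncx1+/+, with 1 (mt-Co2) lower, and -2.53 to Ncx1+/-. Cluster 7, which was rich in both kinds of transcript, held 41475 of 70863 UMIs of the class in Ncx1+/- and 35227 of 227087 in Ncx1-/-. In cluster 2 alone the median over 26 ribosomal protein genes was 0.21 to Ncx1+/+ and -0.52 to Ncx1+/-. The 1 mitochondrial transcript measured there, mt-Co3, stood at -0.98 and -1.42. The parts of cluster make-up and of RNA quality in the ribosomal, mitochondrial and glycolysis values were not tested.

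The median log2 ratio of Ncx1-/- to Ncx1+/+ over the 12 genes was 0.74, against -0.02 over all measured genes. To Ncx1+/- the median was -0.03, against 0.08 over all measured genes. Slc2a1, the glucose transporter of many embryonic cells, showed this pattern most, with 810 CPM in Ncx1-/-, 1482 CPM in Ncx1+/- and 424 CPM in Ncx1+/+. Cluster 7, where Slc2a1 stood at 1755 CPM against 567 CPM in cluster 2, made up 8 of the 15 Ncx1+/- nuclei against 10 of 61 in Ncx1-/- and 3 of 22 in Ncx1+/+. In cluster 2 alone 5 of 12 genes were higher in Ncx1-/- than in Ncx1+/+, and 0 lower, against 4.49% higher and 5.59% lower among 1448 genes, and the medians were 0.52 to Ncx1+/+ and 0.26 to Ncx1+/-.

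Nuclei outside the classes showed the same direction against Ncx1+/+. These 12 genes had a median log2 ratio of Ncx1-/- to Ncx1+/+ of 0.85 in the nuclei outside the rule, against -0.10 over the same measured genes there, and 0.89 in the epicardial cluster, against -0.04. To Ncx1+/- their medians were 0.57 outside the rule and 0.85 in the epicardial cluster, unlike the -0.03 of the mesenchyme-like nuclei. Hk2 stood in these 2 sets at ratios of 2.07 (2.04 to 2.10) and 1.71 (1.52 to 1.93). In mesenchyme-like nuclei without those over 10000 CPM of cardiomyocyte markers, 7 of 12 genes were higher and 0 lower than in Ncx1+/+, against 4.74% higher and 6.42% lower among 1541 genes, and the median was 0.71. In epithelium-like nuclei 3 of 13 measured genes, Hk2, Pfkp and Vegfa, were higher than in Ncx1+/+, against 3.82% of 1963 genes, with a median of 0.38 against -0.02 over all measured genes, and the median to Ncx1+/- was -0.32 against 0.12. The median to Ncx1+/+ was 0.16 without the top 8% of doublet scores (2 of 11 genes higher), 0.16 with at least 1000 genes per nucleus (1 of 9), 0.15 at Leiden resolution 2.0 (1 of 9) and 0.16 in the epithelium-like nuclei of the whole-series cluster (1 of 10, Hk2).

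**Figure D4:**
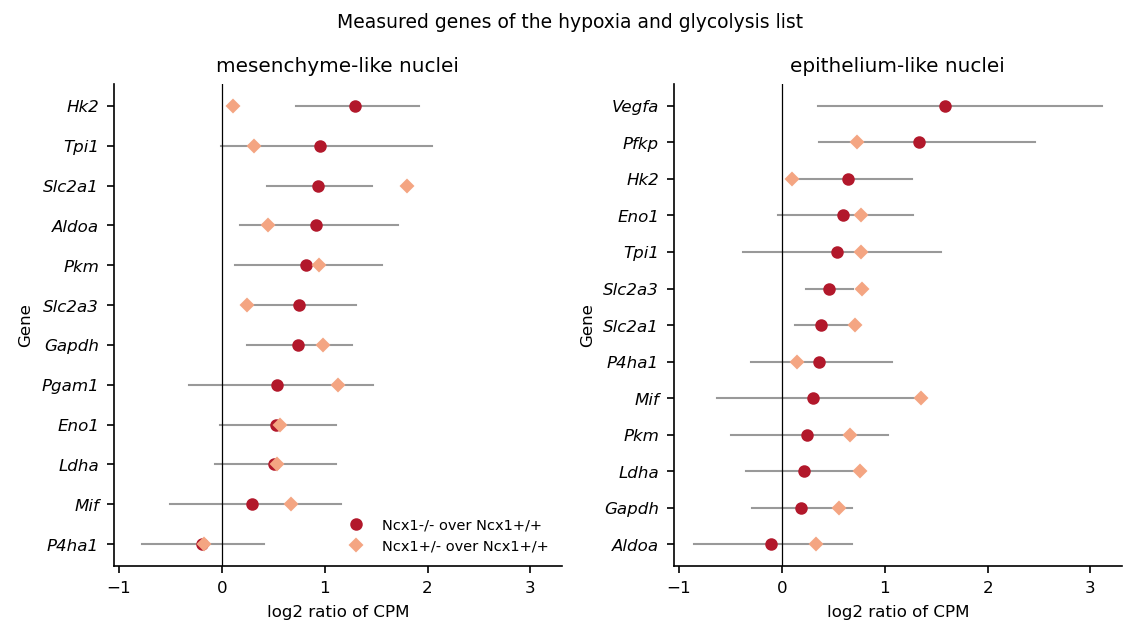
The x axis gives the log2 ratio of CPM to Ncx1+/+ and the y axis the measured genes of the hypoxia and glycolysis list, for mesenchyme-like nuclei on the left and epithelium-like nuclei on the right. Circles are Ncx1-/- with the 95% counting interval as a grey line, and diamonds are Ncx1+/-, with none for Vegfa, which had 0 counts in Ncx1+/-. In mesenchyme-like nuclei 11 of 12 circles lie right of 0, and Ncx1+/- diamonds lie both left and right of the circles.

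Against both other libraries, 7 genes were higher (0.359% of 1952) and 18 lower (0.922%) in Ncx1-/- mesenchyme-like nuclei. With TMM factors the split was 11 higher and 15 lower. Besides Hk2 and the X-inactivation transcript Xist, the higher genes were Slc38a2, Fcho2, Daam1, Tle4 and Tmem55a. Slc38a2, an amino acid transporter, stood at 630 CPM in Ncx1-/-, 310 CPM in Ncx1+/- and 321 CPM in Ncx1+/+. Fcho2, an endocytosis gene, stood at 374 CPM in Ncx1-/-, 98.8 CPM in Ncx1+/- and 197 CPM in Ncx1+/+. Tle4, a Groucho corepressor, stood at 176, 56.4 and 72.4 CPM in the same order of libraries, with 4 and 7 counts in Ncx1+/- and Ncx1+/+.

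Slc8a1 itself was the lowest in Ncx1-/- relative to the others. Sema3e, a semaphorin ligand, stood at 96.9 CPM in Ncx1-/-, 367 CPM in Ncx1+/- and 300 CPM in Ncx1+/+, a ratio to Ncx1+/+ of 0.323 (0.177 to 0.582). In the nuclei outside the rule Sema3e was higher in Ncx1-/-, at a ratio of 1.97 (1.60 to 2.42). In the epicardial cluster it was lower, at a ratio of 0.393 (0.215 to 0.699) on 20 counts in Ncx1-/- and 35 in Ncx1+/+. Col3a1, a fibrillar collagen, stood at 150 CPM in Ncx1-/-, 353 CPM in Ncx1+/- and 310 CPM in Ncx1+/+. Its ratio to Ncx1+/+ was 0.173 (0.154 to 0.193) outside the rule and 1.68 (0.951 to 3.09) in the epicardial cluster. Vcan (versican) and Fbn2 (fibrillin 2), both of embryonic matrix, had the same ratio of 0.556. Cacna2d1, a calcium channel subunit, Ctnna3, a catenin of heart muscle junctions, and Pdlim5, a protein of the muscle Z-disc, had ratios of 0.390, 0.426 and 0.372. Nbea, Peg10 and Prc1 had ratios of 0.460, 0.460 and 0.541. In cluster 2 alone 4 genes were higher (0.276% of 1448) and 7 lower (0.483%), Peg10 among the lower ones. Col3a1 and Sema3e had under 50 counts there and were not measured.

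Of 15 measured genes of the BMP and TGF-beta list 2 (Bmp4, Tgfbr1) were higher and 2 (Bmp5, Bambi) lower than in Ncx1+/+ mesenchyme-like nuclei, where 4.76% and 7.07% of all 1952 genes were. In the 217 mesenchyme-like nuclei of the whole-series cluster these 4 genes were not called, with ratios to Ncx1+/+ of 1.11 for Bmp4, 1.41 for Tgfbr1, 0.873 for Bmp5 and 0.698 for Bambi. There 1 of 17 measured genes of the list (Tgfb2) was higher, against 3.81% of 4303 genes. Bmp4, a ligand, stood at 299 CPM in Ncx1-/-, 325 CPM in Ncx1+/- and 124 CPM in Ncx1+/+, a ratio to Ncx1+/+ of 2.41 (1.29 to 4.89), and outside the rule the ratio was 1.13 (1.06 to 1.21). Bmp5, another ligand, stood at 449 CPM in Ncx1-/-, 409 CPM in Ncx1+/- and 683 CPM in Ncx1+/+, and its ratio of 0.658 became 0.675 with TMM factors, which no longer passes the fold. Bambi, a decoy receptor that dampens BMP and TGF-beta signals, stood at 198 CPM in Ncx1-/-, 310 CPM in Ncx1+/- and 362 CPM in Ncx1+/+. Its ratio to Ncx1+/+ was 0.547 (0.344 to 0.877) in mesenchyme-like nuclei, against 1.17 (1.13 to 1.22) outside the rule. In epithelium-like nuclei Bambi was lower too, at a ratio of 0.566 (0.357 to 0.906). Of the 9 measured collagen chains 0 were higher and 2 (Col3a1, Col4a6) lower, and of 10 Wnt pathway genes 1 (Wnt2) was higher and 2 (Tcf7l1, Ror1) were lower than in Ncx1+/+, against the same shares of 4.76% and 7.07%. In cluster 2 alone 0 of 6 collagen chains and 0 of 7 Wnt pathway genes were called. The shares there were 4.49% higher and 5.59% lower among 1448 genes.

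In epithelium-like nuclei 7 genes were higher (0.357% of 1963) and 6 lower (0.306%) in Ncx1-/- than in both other libraries. The Ncx1+/- sum rested on 7 nuclei and 19917 UMIs, and the split was 46 higher and 1 lower with TMM factors and 24 and 3 with median-of-ratios factors. Dpf3, a subunit of a chromatin remodelling complex of heart and muscle, stood at 1388 CPM in Ncx1-/-, 854 CPM in Ncx1+/- and 816 CPM in Ncx1+/+. Nexn, an actin-binding protein of the muscle Z-disc, stood at 727 CPM in Ncx1-/-, 251 CPM in Ncx1+/- and 390 CPM in Ncx1+/+. In the same order of libraries, the 15 cardiomyocyte markers summed to 7657, 4720 and 7812 CPM in this class. Outside the rule they summed to 22503, 20340 and 18353 CPM. The part of heart muscle RNA in the levels of Dpf3 and Nexn was not tested. The other higher genes were Smyd3, Adamts9, Fhit, Cep85l and Sptb, of which the last 3 had 0 counts in Ncx1+/-, where 3 counts equal 151 CPM. The 6 lower genes were Actg1, Serbp1, Pdlim1, Naaladl2, Man1a2 and Nap1l4. Actg1, a cytoplasmic actin, stood at 563 CPM in Ncx1-/-, 1556 CPM in Ncx1+/- and 888 CPM in Ncx1+/+, and its ratio to Ncx1+/+ of 0.634 became 0.680 with TMM factors, which no longer passes the fold.

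Compared with Ncx1+/+ alone, 1 of 2 measured surface ectoderm genes outside the rule, Tfap2a, was lower, against 5.04% of 1963 genes, and the call depended on the scaling. Tfap2a stood at 113 CPM in Ncx1-/-, 201 CPM in Ncx1+/- and 208 CPM in Ncx1+/+, on 31, 4 and 23 counts, a ratio to Ncx1+/+ of 0.540 (0.305 to 0.971). With TMM factors, which move the median over all measured genes to 0.08 (log2), it was 0.580 (0.327 to 1.04) and not called. In the 101 epithelium-like nuclei of the whole-series cluster, of which 90 are nuclei of the rule, it was 0.503 (0.278 to 0.924). Without nuclei over 10000 CPM of cardiomyocyte markers Tfap2a fell under 50 counts and was not measured. The rule gene Wnt6 stood at 149 CPM in Ncx1-/-, 251 CPM in Ncx1+/- and 254 CPM in Ncx1+/+, and the rule gene Epcam at 134, 201 and 254 CPM in the same order of libraries. Of 4 measured epithelium markers outside the rule 1, Krt18, was higher than in Ncx1+/+ and 0 lower, against 3.82% higher and 5.04% lower among 1963 genes. Krt18 stood at 367 CPM in Ncx1-/-, 653 CPM in Ncx1+/- and 218 CPM in Ncx1+/+, and it was also the 1 marker called of 4 in the whole-series cluster and without nuclei rich in cardiomyocyte markers. Its rise was not particular to this class. The ratio of Krt18 to Ncx1+/+ was 1.80 (1.66 to 1.96) in nuclei outside the rule and 1.71 (1.11 to 2.68) in the epicardial cluster. Ahnak, a large scaffold protein, and Dlk1, an imprinted Notch ligand homologue, were higher, at ratios of 2.31 (1.35 to 4.20) and 1.88 (1.35 to 2.66), and outside the rule their ratios were 1.59 (1.49 to 1.70) and 1.31 (1.21 to 1.41).

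RNA of heart muscle was present in both classes in every library. The 15 cardiomyocyte markers summed to 7657 CPM in Ncx1-/-, 4720 CPM in Ncx1+/- and 7812 CPM in Ncx1+/+ epithelium-like nuclei. In mesenchyme-like nuclei they summed to 6702 CPM in Ncx1-/-, 7253 CPM in Ncx1+/- and 5443 CPM in Ncx1+/+, with 0 markers at 0 counts. The 11 endothelial markers summed to 282 CPM in Ncx1-/-, 550 CPM in Ncx1+/- and 331 CPM in Ncx1+/+ mesenchyme-like nuclei, with 2, 4 and 5 genes at 0 counts. The rule limited the endothelial genes. Without nuclei over 10000 CPM of cardiomyocyte markers, the calls for Ncx1-/- against both other libraries numbered 12 upward and 19 downward in mesenchyme-like nuclei, and 11 upward and 6 downward in epithelium-like nuclei. The part of the endothelial markers in the genotype differences was not tested.

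Slc8a1 (ENSMUSG00000054640, chr17:81373105-81738377, minus strand, mm10), the mutated gene, had most of its counts in a few nuclei of these classes. It stood at 70.5 CPM in Ncx1-/-, 1411 CPM in Ncx1+/- and 1687 CPM in Ncx1+/+ mesenchyme-like nuclei. In Ncx1+/+ 1 nucleus held 109 of the 163 counts, and in Ncx1+/- the 5 highest of 15 nuclei held 96 of 100. In epithelium-like nuclei it stood at 134 CPM in Ncx1-/-, 50.2 CPM in Ncx1+/- and 3362 CPM in Ncx1+/+. There 5 of the 29 Ncx1+/+ nuclei held 359 of 371 counts, 16 had 0, and the level was 1017 CPM without the nuclei of the top 8% of doublet scores. In cardiomyocyte-type nuclei of the rule the gene was spread widely, at 1122 CPM in Ncx1-/-, 9227 CPM in Ncx1+/- and 16141 CPM in Ncx1+/+. Which part of Slc8a1 the mutation removes is not stated in the labels.

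**Figure D5:**
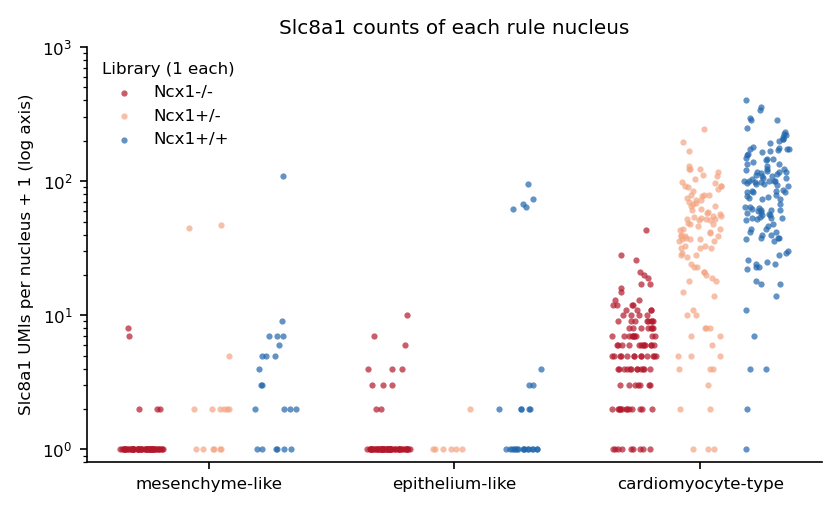
The y axis gives Slc8a1 UMIs per nucleus plus 1 on a log axis for each class of the rule on the x axis. Points are single nuclei, with Ncx1-/- left, Ncx1+/- in the middle and Ncx1+/+ right. Most mesenchyme-like and epithelium-like nuclei lie at or near 0 UMIs, with a few Ncx1+/- and Ncx1+/+ nuclei between 40 and 110, and the cardiomyocyte-type nuclei keep the order of the genotypes.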

How the data were processed

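Single-nucleus libraries were made with the 10x Genomics version 3.1 kit, per the labels' protocols. The authors deposited whole-number UMI counts per gene and barcode without normalisation. Cell Ranger 6.1.0 and mm10 are named in the submitters' processing notes, and version 9.0.0 per the file headers. The labels do not say whether intronic reads were used.

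Nuclei of the rule were scaled to 10000 counts, log-transformed and clustered with scanpy 1.11.5 (2000 variable genes, 30 components, 15 neighbours, Leiden resolution 1.0, no correction between libraries). A cluster with at least 50% of the outside cardiomyocyte marker level was called cardiomyocyte-type, otherwise epithelium-like with at least 10 epithelium markers at 3-fold and 5 counts, otherwise mesenchyme-like with at least 5 mesenchyme markers. These limits were set after the clusters were seen. Doublets were scored with Scrublet in scanpy and kept, since its automatic threshold called 0% of Ncx1-/- nuclei and 14.3% and 11.4% of Ncx1+/- and Ncx1+/+ nuclei. Counts were summed per class and library and divided by the class total (CPM). Intervals of shares are Clopper-Pearson, and those of ratios are exact for 2 Poisson counts. A level of 0 was set to 3 counts for ratios to nuclei outside the rule. Calling was tested on simulated counts with 200 changed genes. Coordinates are from GENCODE M21. Size factors came from edgeR 4.0.16.

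The members, the 39 gene lists and the comparisons were chosen with earlier results of these data known. Named genes are the rule genes, leading genes among the 20 highest ratios of a class, up to 10 highest and 10 lowest genes in Ncx1-/-, and list members that stood apart. The ranking left out predicted, sex-linked, haemoglobin, ribosomal and mitochondrial genes. Some genes outside this choice (Xist, Kdr, Tek, Pdk1) were chosen after their values were seen.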

Additional observations from a re-analysis of the deposited data

How the results depend on the processing

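No paired analysis was possible because each genotype has 1 library. The log2 ratio of the Ncx1-/- to the Ncx1+/+ share kept its direction under each alternative run, between 1.17 and 1.60 for epithelium-like and 1.56 and 1.75 for mesenchyme-like nuclei. For all nuclei of the rule it was 0.60, and 1.18 with at least 3 rule genes and 1.12 after thinning each nucleus to 1500 UMIs. The cause was not tested. Counts of genes against both libraries were small and moved. In epithelium-like nuclei the 7 higher genes became 46 with TMM factors, 24 with median-of-ratios factors, 4 at a count minimum of 100, 3 at a fold of 2 and 13 without the top 8% of doublet scores. The 6 lower genes became 1, 3, 13 (count minimum of 20), 22 (none) and 2 (fold of 2), the first pair with those factors. In mesenchyme-like nuclei the 7 higher genes became 11 with TMM factors, 13 at a minimum of 20, 15 with none and 3 at a fold of 2. The 18 lower genes became 34 with no minimum, 9 at a fold of 2 and 7 with at least 1000 genes per nucleus. Other alternatives were chosen after seeing the data. Against Ncx1+/+ alone 75 genes were higher and 99 lower in epithelium-like, and 93 and 138 in mesenchyme-like nuclei. Without nuclei over 10000 CPM of cardiomyocyte markers 11 were higher and 6 lower than in both libraries in epithelium-like, and 12 and 19 in mesenchyme-like nuclei. Cluster 2 alone gave 4 higher and 7 lower, and all mesenchyme-like nuclei of the whole-series cluster gave 33 higher and 25 lower, so there more genes were higher than lower. With 7 epithelium-like and 15 mesenchyme-like nuclei, depth in Ncx1+/- limits every comparison with that library.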

Other observations

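Xist, transcribed from the inactive X chromosome of female cells, was unevenly spread over the classes. It was found in 0 of 7 Ncx1+/- epithelium-like nuclei, at a median of 2664 UMIs, and in 43.3% of Ncx1+/- nuclei outside the rule, at a median of 3494 UMIs. In cluster 7 it was found in 1 of 10 Ncx1-/- nuclei, whereas in cluster 2 it was found in 34 of 51 and outside the rule in 64.0% of Ncx1-/- nuclei. The sexes of the pooled embryos are not given in the labels. Which embryos gave these nuclei was not tested.

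The cluster of the whole series that holds most mesenchyme-like and epithelium-like nuclei also held 184 nuclei outside the rule, of which 101 had UMIs of 1 rule gene, 45 of none and 25 of at least 4 endothelial genes. It numbered 262 nuclei in Ncx1-/-, 40 in Ncx1+/- and 102 in Ncx1+/+. Its mesenchyme-like sub-clusters, named by the same limits, held 143 nuclei in Ncx1-/-, 24 in Ncx1+/- and 50 in Ncx1+/+, and the Ncx1-/- share was 3.15 times that of Ncx1+/+ (2.27 to 4.43). A sub-cluster among them, of 23 nuclei in Ncx1-/-, 0 in Ncx1+/- and 6 in Ncx1+/+, held 0 nuclei of the rule and had a median of 7719 UMIs, against 3941 in the whole cluster. In the whole set of 217 nuclei Pdk1, a kinase that restrains pyruvate use by mitochondria, stood at 161 CPM in Ncx1-/-, 54.5 CPM in Ncx1+/- and 22.4 CPM in Ncx1+/+. The endothelial gene Flt1 stood at 216 CPM in Ncx1-/-, 0 CPM in Ncx1+/- and 67.3 CPM in Ncx1+/+, and Egfl7 at 187, 54.5 and 49.3 CPM in the same order.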
